A study of Mus musculus with 16 samples.

Results

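The heat shock proteins and chaperones described here were chosen by gene name. They are the names on the array that begin with Hspa, Hspb, Hspd, Hspe, Hsph, Hsp90, Dnaja, Dnajb, Dnajc, Cct or Pfdn followed by a member number, and Tcp1. The rule found 87 of the 30214 gene names on the array. Of these, 76 passed the detection filter and were tested among 19365 genes: 49 with products in the cytosol or nucleus, 14 in the ER, 9 in mitochondria and 4 elsewhere or unplaced. The name alone brought in Hspb11, a subunit of intraflagellar transport, and Hspbap1, a protein that binds Hspb1. The 11 names that did not pass were Cct8l1, Dnajb3, Dnajb7, Dnajb8, Dnajb13, Dnajc5b, Dnajc5g, Dnajc6, Hspa12a, Hspb3 and Hspb7. Hspa1b and Pfdn6 were not analysed here.

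All samples were AML12 cells, a line of mouse hepatocytes. The cells carried a lentiviral shRNA that doxycycline switches on, either a scramble sequence or one against eIF6, a factor that binds the 60S ribosomal subunit and holds it apart from the 40S. All 4 groups, controls included, therefore shared the vector, doxycycline and insulin for 1 h, the dose of which is 100 nM in one label and 100 mM in another. Lysates were spun through sucrose gradients, and the RNA was pooled into a subpolysomal part, from the free messages to the single ribosome, and a polysomal part, with several ribosomes on each message. Each of the groups (scramble subpolysomal, scramble polysomal, eIF6 shRNA subpolysomal, eIF6 shRNA polysomal) had 4 one-colour arrays, and each of the 4 slides held 1 array of every group. The hepatocyte genes Trf, Hnf4a, Ttr, Krt8 and Krt18 were well above background on all arrays, while Alb was so on 0 to 3 of the 4 arrays of a group and Apoa1 on 0 to 2.

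Chaperones hold and fold new or unfolded protein chains. In the cytosol, prefoldin and HSP70 receive chains at the ribosome, J-domain proteins (the DNAJ families) bring clients to HSP70 and make it hydrolyse ATP, exchange factors such as Hsph1 reset it, and HSP90 and the CCT ring finish a narrower set of clients, actin and tubulin among those of CCT. The ER and the mitochondrial matrix each have their own HSP70 (Hspa5, Hspa9) with its own J-domain partners, and the matrix also has the Hspd1 ring with its Hspe1 lid. Heat shock factor acts through repeats of nGAAn in promoters of the heat-inducible genes, and the unfolded protein response of the ER acts through the ER stress element.

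Both signals can be read in the RefSeq promoters (GRCm38.p6, 250 bases before to 50 after each start), which matched 61 of the 76 tested members. The letters GAANNTTCNNGAA, searched on both strands, stood in 0.603% of 32851 promoter windows and in those of 4 members, Hspd1, Hspe1, Hsph1 and Dnajb6. The ER stress element, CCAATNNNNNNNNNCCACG on either strand, stood in 0.119% of windows and in those of 3 members, Hspa5, Hsp90b1 and Dnajc3. Its shorter form ATTGGNCCACG stood in 0.0365% of windows and in that of 1 member, Dnajb11, past the start. These stretches are shown because they are shared by genes whose placement in the gradient is set side by side further on. Capitals mark the matched letters, and each line runs along the strand of its gene. For Hsp90b1 the match closer to the start, on the opposite strand, is shown.
Hspa5, chr2:34772005-34772063, plus strand: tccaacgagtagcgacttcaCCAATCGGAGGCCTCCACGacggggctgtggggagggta
Dnajc3, chr14:118937807-118937865, plus strand: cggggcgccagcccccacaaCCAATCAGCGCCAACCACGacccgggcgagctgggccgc
Hsp90b1, chr10:86705513-86705571, minus strand: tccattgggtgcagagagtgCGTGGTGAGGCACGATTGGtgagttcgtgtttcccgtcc
Hspe1, chr1:55088056-55088084, plus strand: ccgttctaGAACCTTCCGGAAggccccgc
The last stretch lies between the start of Hspe1 and one start of Hspd1, which run in opposite directions, so it lies in the windows of both genes, where a second match overlaps it by most of its length. The letters CCAAT alone, which the ER stress element contains, stood in 37.4% of all windows and in those of 25 members.

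Array values are quantile-normalized log2 intensities, so each difference, between shRNAs as between fractions, is relative to the other genes. The study's methods report lower polysomes in eIF6 shRNA cells than in control cells. A rise in polysomes given here is thus relative and need not be a larger amount of message there. A difference was called when the adjusted p of limma, with Benjamini-Hochberg adjustment over all genes tested, was under 0.05. Eif6 itself checked the shRNA labels of the polysomal arrays. In polysomes it lay at 12.96, 12.94, 12.96 and 12.94 on the scramble arrays and at 11.92, 12, 11.85 and 11.81 on the eIF6 shRNA arrays, a fall of 1.05 ± 0.08 (SE, n = 4 arrays a group, limma adjusted p = 1.45e-07). In subpolysomes its difference was 0.02 ± 0.08 (SE), so it gives no check of the labels there. Between 20177 and 24953 probes were well above background on an array.

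One replicate stood apart in polysomes, and the chaperones were among the genes that set it apart. On the scramble polysomal array of replicate 4, 25 of the 76 members (32.9%) lay more than 0.5 above the mean of the other 3 arrays, against 14.3% of all genes. On the eIF6 shRNA polysomal array of replicate 4 the count was 26 (34.2%), against 11.7% of all genes. The members were largely shared, since 22 exceeded 0.5 on both arrays. All 8 subunits of the CCT ring did so in scramble cells and 7 of 8 in eIF6 shRNA cells. These arrays lay on different slides, and the correlation of their deviations over all genes was 0.41. Hspa5, the HSP70 of the ER, was at 14.07, 14.07, 13.96 and 14.95 in scramble polysomes and at 13.56, 13.67, 14.19 and 14.96 in eIF6 shRNA polysomes. Hspd1 showed the same form, with 13.73, 13.69, 13.63 and 14.70 in scramble polysomes and 13.64, 13.72, 14.17 and 14.80 in eIF6 shRNA polysomes. The array of replicate 4 was the highest of each of these groups. What set it apart was not tested. For some of the results that rest on it, values without it are also given.

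**Figure D1:**
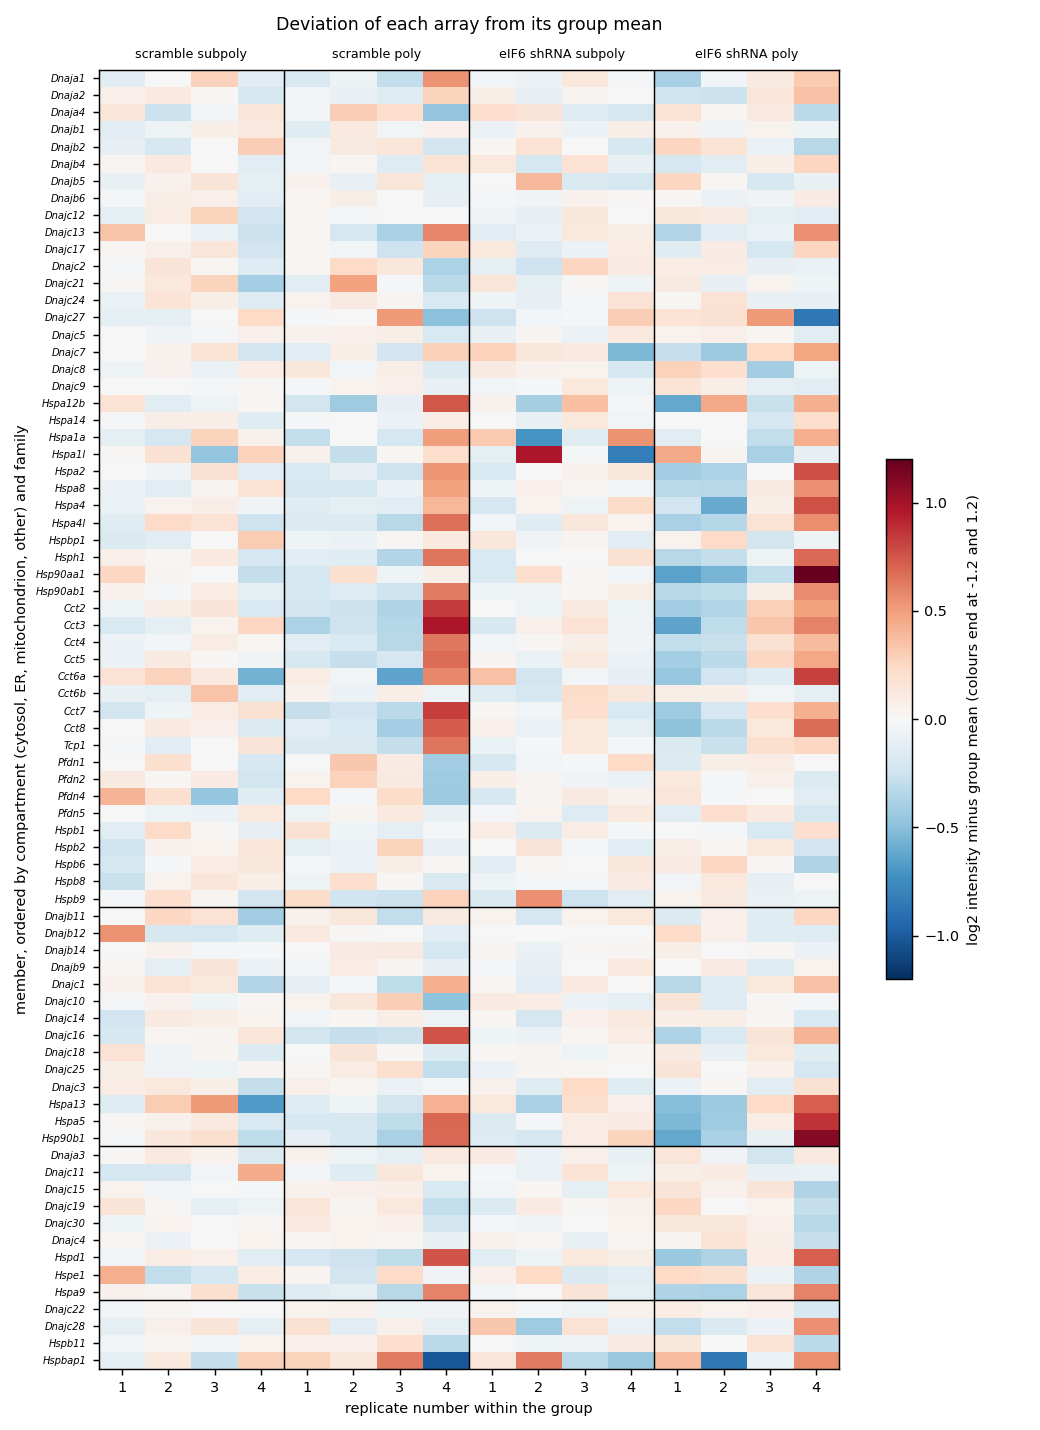
Log2 intensity of each of the 76 tested members on each of the 16 arrays minus the mean of its group, with members in rows by compartment and family and arrays in columns by group and replicate number. The polysomal arrays of replicate 4 are red for the CCT subunits, Hspa5, Hsp90b1, Hspd1 and Hspa9, and the subpolysomal arrays show no such block.

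The question of the main comparison was which chaperone messages changed in each gradient fraction when eIF6 was lowered. In polysomes, 6 of 76 members were lower and 5 were higher, beside 10.7% lower and 11.1% higher of all genes. The 5, and the further counts of members higher in polysomes, include Dnajc28. It passed the filter only through the group in which it was high, so its call is no support. In subpolysomes, 6 were lower and 8 higher, beside 12.3% and 11.8% of all genes. The median member difference was 0.01 in polysomes and 0.08 in subpolysomes, and the medians over all genes were 0.02 and 0.02. Of the 17 members called in either fraction, 8 were called in both, each in the same direction. The members called were 7.89% lower and 6.58% higher in polysomes, and 7.89% and 10.5% in subpolysomes. Each share was thus below that of all genes, a difference that was not tested. By compartment, 7 of 49 in the cytosol, 2 of 14 in the ER and 1 of 9 in mitochondria were called in polysomes. These stand beside the same 10.7% and 11.1% of all genes. On scaling arrays to the 75th percentile in place of quantiles, 4 members were lower and 12 higher in subpolysomes. Without the scramble polysomal array of replicate 4, 11 members were higher in polysomes, 7 of the members called being new, namely Cct2, Cct4, Tcp1, Hsp90ab1, Hspa2, Hspa4l and Dnaja1. That setting kept the eIF6 shRNA polysomal array of replicate 4, which was also high. Without replicate 4 in all groups, Cct4, Tcp1 and Dnaja1 were not called in polysomes. Without the eIF6 shRNA polysomal array of replicate 4 alone, none of the 7 was.

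**Figure D2:**
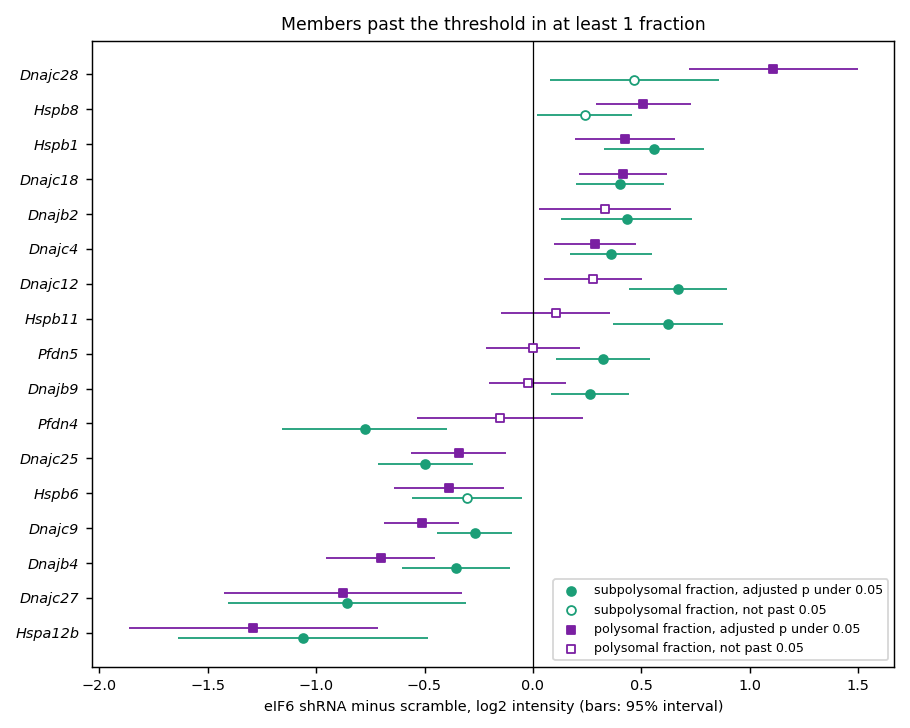
Difference between eIF6 shRNA and scramble cells in log2 intensity, with 95% intervals, for the 17 members called in at least 1 fraction (circles, subpolysomal; squares, polysomal; filled, adjusted p under 0.05). Hspb1 and Dnajc18 lie above 0 in both fractions, Dnajb4, Dnajc9, Dnajc25, Dnajc27 and Hspa12b below 0 in both, and Pfdn4 and Hspb11 differ in subpolysomes alone by call.

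Among the small heat shock proteins of the cytosol, Hspb1 and Hspb8 rose and Hspb6 fell. Hspb1 is an ATP-independent chaperone that keeps unfolded chains soluble (probe at mm9 chr5:136365366-136365425). In subpolysomes it lay at 12.67, 13.04, 12.82 and 12.71 in scramble cells and at 13.46, 13.21, 13.46 and 13.36 in eIF6 shRNA cells. The groups did not overlap, and the difference was 0.56 ± 0.11 (SE, limma adjusted p = 0.00145), or 1.48-fold. In polysomes Hspb1 was at 14.00, 13.76, 13.70 and 13.80 in scramble cells and at 14.25, 14.23, 14.06 and 14.44 in eIF6 shRNA cells. The rise there was 0.42 ± 0.11 (SE, limma adjusted p = 0.00972), and it was 0.35 with an adjusted p of 0.0584 without replicate 4. Hspb8, which works with Bag3 to clear misfolded protein, rose in polysomes (probe at mm9 chr5:116859063-116859122). It was at 10.85, 11.13, 10.93 and 10.74 in scramble polysomes and at 11.39, 11.55, 11.33 and 11.43 in eIF6 shRNA polysomes. All 4 eIF6 shRNA values were above all scramble values, and the rise was 0.51 ± 0.10 (SE, limma adjusted p = 0.00195). In subpolysomes its difference was 0.24 ± 0.10 (SE, limma adjusted p = 0.11). Hspb6, a small heat shock protein best known from muscle, went the other way in polysomes, with 12.40, 12.36, 12.50 and 12.43 in scramble cells and 12.14, 12.28, 12.05 and 11.68 in eIF6 shRNA cells. It fell by 0.39 ± 0.12 (SE, limma adjusted p = 0.0288), and by 0.27 with no call left without the eIF6 shRNA array of replicate 4. Of the 5 small heat shock proteins tested, 2 rose and 1 fell in polysomes, beside 11.1% and 10.7% of all genes, and 1 rose in subpolysomes, beside 11.8%.

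Of the 38 J-domain proteins tested, 4 were lower (10.5%) and 3 higher (7.89%) in polysomes, beside 10.7% and 11.1% of all genes. The 3 include Dnajc28, taken up below. In subpolysomes 4 were lower (10.5%) and 5 higher (13.2%), beside 12.3% and 11.8% of all genes. Dnajb4, a partner of HSP70, was at 7.44, 7.50, 7.32 and 7.64 in scramble polysomes and at 6.57, 6.64, 6.85 and 7.02 in eIF6 shRNA polysomes. The groups stood clear of each other, and the fall was 0.70 ± 0.12 (SE, limma adjusted p = 0.000401), to 0.614 of the scramble level (probe at mm9 chr3:151849464-151849523). In subpolysomes it fell by 0.35 ± 0.12 (SE, limma adjusted p = 0.0395). Dnajc9, a nuclear J-domain protein and histone chaperone, fell in both fractions. Its polysomal values were 13.62, 13.67, 13.70 and 13.54 in scramble cells and 13.28, 13.20, 13.01 and 12.98 in eIF6 shRNA cells, a fall of 0.51 ± 0.08 (SE, limma adjusted p = 0.000239). Its subpolysomal values were 12.38, 12.38, 12.36 and 12.39 in scramble cells and 12.07, 12.08, 12.24 and 12.05 in eIF6 shRNA cells, a fall of 0.27 ± 0.08 (SE, limma adjusted p = 0.0244). No eIF6 shRNA array reached a scramble array in either fraction.

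Dnajc12, a cytosolic J-domain protein needed by the aromatic amino acid hydroxylases of liver, rose in subpolysomes. Its values there were 7.80, 8.0, 8.18 and 7.68 in scramble cells and 8.54, 8.49, 8.72 and 8.59 in eIF6 shRNA cells, a difference of 0.67 ± 0.11 (SE, limma adjusted p = 0.000302). In polysomes the difference was 0.28 ± 0.11 (SE, limma adjusted p = 0.0774), although its 4 arrays a group did not overlap there either. Dnajb2 rose by 0.43 ± 0.14 (SE, limma adjusted p = 0.0377) in subpolysomes, a call kept under 8 of 15 other settings. Dnajc27, a J-domain protein with a GTPase domain, fell by 0.88 ± 0.26 (SE) in polysomes and by 0.86 ± 0.26 (SE) in subpolysomes (limma adjusted p = 0.0229 and 0.0242), and was well above background on 3 of the 4 eIF6 shRNA polysomal arrays. Dnajc28 was above background only on 3 of the eIF6 shRNA polysomal arrays, through which it passed the filter, and was at least 1.73-fold higher there than in scramble polysomes, with the dim group set at the lowest signal well above background on its arrays. Since it passed through the group in which it was high, its call is no support for a difference.

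**Figure D3:**
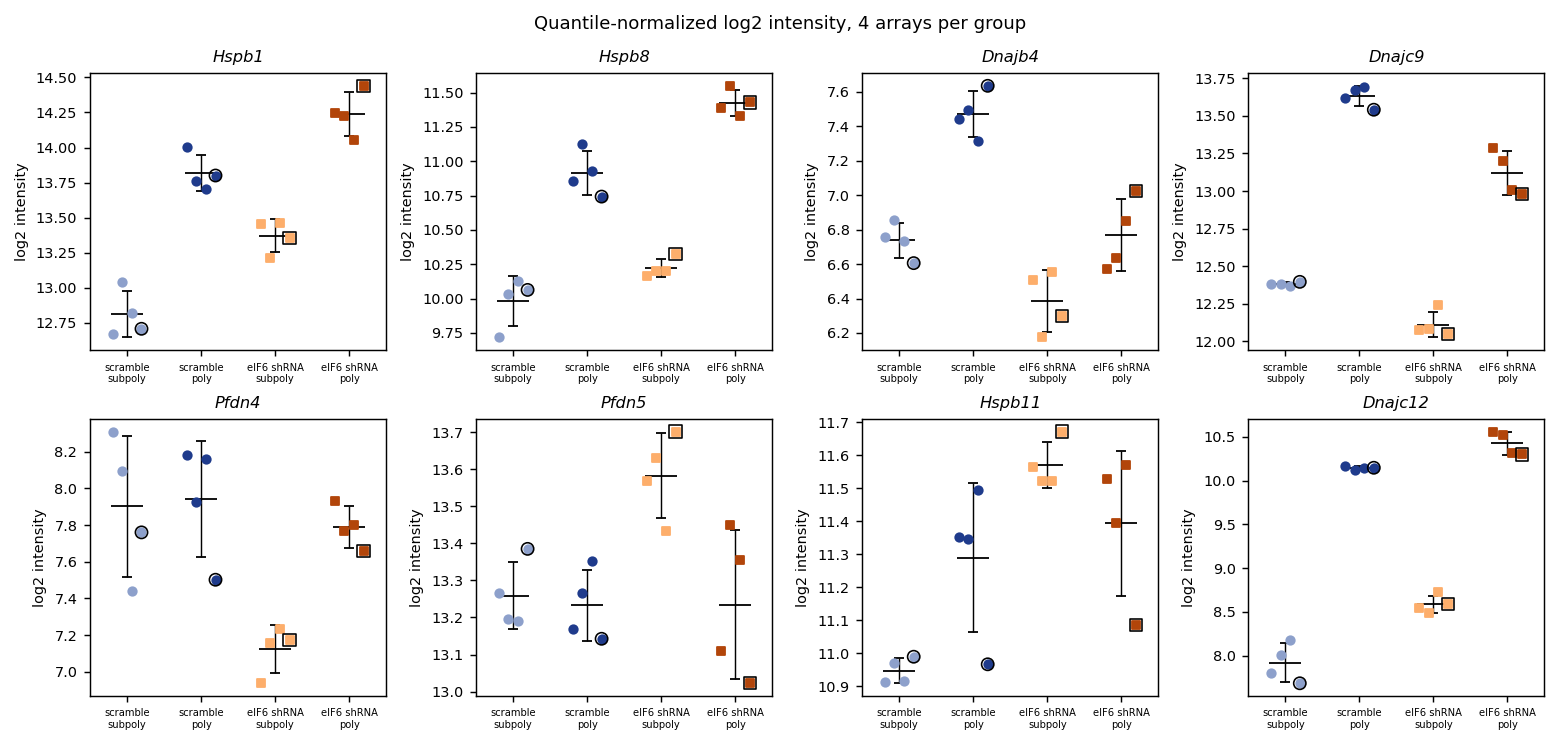
Log2 intensity of 8 members on all 16 arrays, with points for arrays, black-ringed points for replicate 4, and lines for the mean and SD of the 4 arrays of a group. The eIF6 shRNA polysomal arrays lie above the scramble ones for Hspb1 and Hspb8 and below them for Dnajb4 and Dnajc9, and the subpolysomal arrays of Pfdn4 and Pfdn5 separate in opposite directions.

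Prefoldin, the complex that hands actin and tubulin to the CCT ring, split in subpolysomes. Pfdn4 lay at 8.31, 8.10, 7.44 and 7.76 in scramble subpolysomes and at 6.94, 7.16, 7.23 and 7.17 in eIF6 shRNA subpolysomes. It fell by 0.78 ± 0.18 (SE, limma adjusted p = 0.00516), with the highest eIF6 shRNA array below the lowest scramble array (probe at mm9 chr2:170344325-170344384). Pfdn5 lay at 13.26, 13.19, 13.19 and 13.39 in scramble subpolysomes and at 13.57, 13.63, 13.43 and 13.70 in eIF6 shRNA subpolysomes, a rise of 0.32 ± 0.10 (SE, limma adjusted p = 0.0312). In polysomes both differences were smaller and not called, −0.15 ± 0.18 (SE) for Pfdn4 and 0.00 ± 0.10 (SE) for Pfdn5. Pfdn1 and Pfdn2 were not called in either fraction, with subpolysomal differences of −0.26 ± 0.14 (SE) and −0.01 ± 0.13 (SE).

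None of the 8 subunits of the CCT ring was called in either fraction. Their 8 subpolysomal differences were all above 0, from 0.10 for Cct6a to 0.56 for Cct2, with a median of 0.34. Cct2 was at 14.54, 14.68, 14.76 and 14.41 in scramble subpolysomes and at 15.16, 15.09, 15.26 and 15.10 in eIF6 shRNA subpolysomes. The groups did not overlap, yet the difference of 0.56 ± 0.25 (SE) had a limma adjusted p of 0.118, since the fit shares 1 spread over all groups. In polysomes the same gene was at 14.60, 14.57, 14.46 and 15.66 in scramble cells and at 14.84, 14.90, 15.54 and 15.73 in eIF6 shRNA cells. Without the scramble polysomal array of replicate 4, 3 subunits (Cct2, Cct4 and Tcp1) were called higher in subpolysomes, with limma adjusted p of 0.0279, 0.0234 and 0.0304, and the same 3 in polysomes. With the arrays scaled to the 75th percentile 3 were also called higher in subpolysomes, and without replicate 4 in all groups 4 were. Dropping the scramble polysomal array left the subpolysomal differences of Cct2, Cct4 and Tcp1 unchanged, since only the shared spread depends on it. With replicate 4 out of all groups, Cct2 alone of the ring was called in polysomes. The CCT calls, rather than the subpolysomal differences, thus turned on 1 replicate, and the calls also changed with the scaling.

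The main cytosolic HSP70 and HSP90 messages were not called. Hspa8, the constitutive HSP70, differed by 0.34 ± 0.19 (SE) in polysomes and 0.09 ± 0.19 (SE) in subpolysomes. Hsp90ab1, the constitutive HSP90, differed by 0.32 ± 0.20 (SE) and 0.10 ± 0.20 (SE), the latter 0.50 and called on the 75th percentile scale. For the heat-inducible Hsp90aa1 the values were 0.17 ± 0.35 (SE) and 0.33 ± 0.35 (SE), which average a bright probe with one well above background on 0 to 2 arrays of a group. The bright probe alone gave 0.09 in polysomes and −0.04 in subpolysomes, so the mean describes neither probe. Dnajb1, the J-domain protein most widely used as a sign of the heat shock response, differed by −0.20 ± 0.08 (SE) in both fractions (limma adjusted p = 0.109 in polysomes and 0.0899 in subpolysomes). Hsph1, an exchange factor of HSP70, differed by −0.12 ± 0.22 (SE) and 0.09 ± 0.22 (SE). Hspa1a, the stress-inducible HSP70, was dim, with 0 of 4 scramble and 2 of 4 eIF6 shRNA subpolysomal arrays well above background, and its difference was not called in either fraction. Signal from its near-identical copy Hspa1b cannot be told apart from its own.

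Hspa12b, a distant HSP70 relative known from endothelial cells, had the largest fall of all members. It lay at 5.76, 5.55, 5.88 and 6.73 in scramble polysomes and at 4.08, 5.15, 4.42 and 5.12 in eIF6 shRNA polysomes, lower by 1.29 ± 0.27 (SE, limma adjusted p = 0.00246). In subpolysomes it fell by 1.06 ± 0.27 (SE, limma adjusted p = 0.00986). The groups did not overlap in either fraction. Of the endothelial markers, Cdh5 and Tek were well above background on no array, while Pecam1 and Kdr were on all arrays, with group means of 4.70 to 5.44 and of 9.53 to 11.53. The fibroblast genes Col1a1, Col3a1, Pdgfrb and Acta2 were on all arrays and lower in eIF6 shRNA cells, and Des, the last of that list of 5, was well above background on 0 to 4 arrays of a group. The summed level of the 5 genes, on the log2 scale, was 16.16 to 16.75 in scramble polysomes, 13.35 to 13.70 in eIF6 shRNA polysomes, 15.46 to 15.64 in scramble subpolysomes and 14.09 to 14.45 in eIF6 shRNA subpolysomes. That of the endothelial genes was 9.42 to 9.95 and 9.30 to 9.77 in polysomes. Their part in the falls of members was not tested, and in bulk RNA fewer cells of a type and less RNA per cell cannot be told apart.

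In the ER, Hspa5 (BiP) and Hsp90b1 (Grp94), the major chaperones of the lumen, were not called. Hspa5 differed by −0.17 ± 0.27 (SE) in polysomes and −0.18 ± 0.27 (SE) in subpolysomes, and Hsp90b1 by −0.13 ± 0.31 (SE) and 0.30 ± 0.31 (SE). Dnajb9, a J-domain partner of Hspa5 that the unfolded protein response raises, was at 6.25, 6.12, 6.38 and 6.15 in scramble subpolysomes and at 6.47, 6.39, 6.49 and 6.61 in eIF6 shRNA subpolysomes. The rise of 0.26 ± 0.08 (SE, limma adjusted p = 0.0321) kept its call under 7 of 15 other settings. Dnajb11, Dnajc3, Dnajc10 and Hspa13 were not called in either fraction. The other ER calls were membrane J-domain proteins. Dnajc18 rose by 0.41 ± 0.09 (SE) in polysomes and 0.40 ± 0.09 (SE) in subpolysomes (limma adjusted p = 0.00483 and 0.0062). Dnajc25 fell by 0.34 ± 0.10 (SE) and 0.50 ± 0.10 (SE, limma adjusted p = 0.0268 and 0.00262). All 4 subpolysomal Dnajc25 values of the eIF6 shRNA cells, 8.22 to 8.32, were below the scramble values of 8.72 to 8.85.

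In mitochondria the folding machinery was not called. Hspd1 differed by 0.14 ± 0.25 (SE) in polysomes and 0.04 ± 0.25 (SE) in subpolysomes, its lid Hspe1 by −0.07 ± 0.17 (SE) in both, and Hspa9 (mortalin) by 0.24 ± 0.22 (SE) and 0.20 ± 0.22 (SE). Dnaja3, the partner of Hspa9, differed by −0.05 ± 0.10 (SE) and 0.08 ± 0.10 (SE). The probes of Dnajc19, a J-domain protein of the import motor, gave polysomal differences of 0.51 and −0.09, so its mean of 0.21 ± 0.12 (SE) describes neither. Dnajc4 was the 1 mitochondrial member called, higher by 0.29 ± 0.09 (SE) in polysomes and 0.36 ± 0.09 (SE) in subpolysomes (limma adjusted p = 0.0293 and 0.00804).

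Slides shared 1 array of each group, so each change could also be read within a slide. In subpolysomes all 14 called members kept their direction on all 4 slides. In polysomes 10 of 11 did, and Dnajc4 did on 3. The members were called on these same arrays, and groups that do not overlap must keep their direction on every slide. The count is thus a description and adds no support to the calls. With slide as a block 7 members were lower and 5 higher in polysomes, and 6 were lower and 11 higher in subpolysomes. Of the 22 called changes of named members, 7 were called under all 15 other settings: Dnajb4, Dnajc9 and Hspb8 in polysomes, and Dnajc12, Dnajc25, Hspb1 and Hspb11 in subpolysomes. The other 15 lost the call under at least 1 setting, often on leaving out a replicate.

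Translational efficiency was taken as the polysomal minus the subpolysomal level, and its change as the interaction of shRNA and fraction. No member was called, beside 1.11% lower and 0.403% higher of all genes by limma. At an unadjusted p under 0.05, 6 members were lower (7.89%) and 2 higher (2.63%), beside 7.34% and 5.16% of all genes. The 6 were Hspb11, Dnajc12, Dnajb9, Dnajc9, Pfdn5 and Hspb9, and the 2 were Pfdn4 and Dnajc28. Hspb11, the transport subunit, had the lowest adjusted p, with a difference of −0.52 ± 0.17 (SE, limma adjusted p = 0.173). It was at 10.91, 10.97, 10.91 and 10.99 in scramble subpolysomes and at 11.56, 11.52, 11.52 and 11.67 in eIF6 shRNA subpolysomes, a rise of 0.62 ± 0.12 (SE, limma adjusted p = 0.00135). In polysomes the groups overlapped, with 11.35, 11.35, 11.49 and 10.97 against 11.53, 11.39, 11.57 and 11.08. Without the scramble polysomal array of replicate 4, the lowest of that group for Hspb11, its efficiency change was −0.63 (limma adjusted p = 0.0479). With replicate 4 out of all groups it was −0.50 (limma adjusted p = 0.042). Hspb11 was the 1 member called in either setting.

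The CCT subunits all lay below 0 in translational efficiency, from −0.46 for Cct7 to −0.12 for Cct2, with a median of −0.20 beside 0.02 over all genes. The 95% interval for Cct7 ran from −1.18 to 0.26. Without the scramble polysomal array of replicate 4, 3 of the 8 lay below 0 and 5 above, and the median was 0.01. That setting kept the eIF6 shRNA polysomal array of replicate 4, on which 7 of the 8 also lay more than 0.5 high. Dropping the high array on 1 side alone shifts the difference, so it cannot show that the sign rested on replicate 4. With replicate 4 out of all groups, all subunits but Cct2 still lay below 0. Cct2 then differed by 0.55 in polysomes and 0.51 in subpolysomes. For Hspa5 the interval of the efficiency change ran from −0.80 to 0.82 and for Hspd1 from −0.65 to 0.86, so changes of that size in either direction could not be told from 0 with 4 arrays a group.

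A further question was how each chaperone message was spread over the gradient, whatever the shRNA. Here placement means the polysomal minus the subpolysomal level. It is relative to the other genes, since each array was brought to the same distribution. In scramble cells 11 of 76 members were called subpolysomal and 25 polysomal, beside 28.4% and 31.7% of all genes. In eIF6 shRNA cells the counts were 12 and 22, beside 28.7% and 32.1% of all genes. In 28 members placement was called under both shRNAs, 20 polysomal and 8 subpolysomal, with no change of direction. With the 75th percentile as the scale, the median of all genes moved to −0.20 in scramble and −0.23 in eIF6 shRNA cells, from 0.04 and 0.03. The counts of members were then 13 subpolysomal and 25 polysomal in scramble cells, and 17 and 25 in eIF6 shRNA cells. Without replicate 4, more members were called, 18 and 28 in scramble cells.

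**Figure D4:**
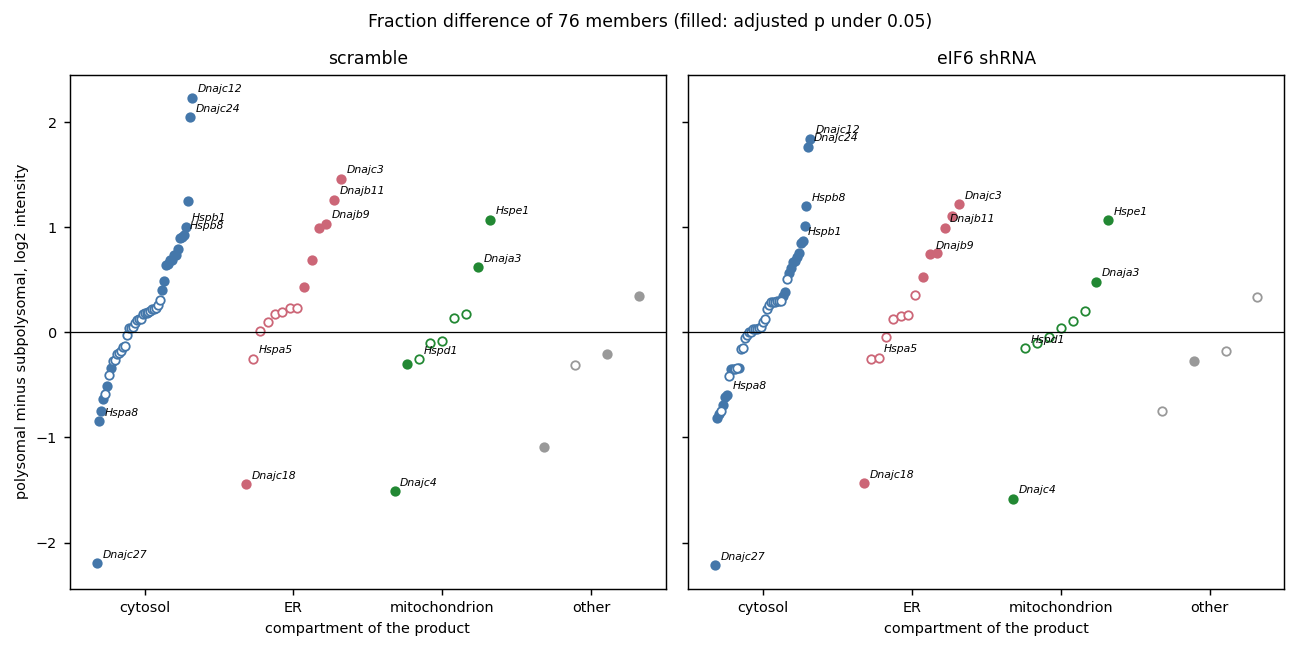
Polysomal minus subpolysomal log2 intensity of the 76 tested members in scramble cells (left) and eIF6 shRNA cells (right), ordered by size within each compartment (filled, adjusted p under 0.05). Dnajc12, Dnajc24, Dnajc3, Dnajb11 and Hspe1 lie high and Dnajc27, Dnajc4 and Dnajc18 low in both panels, while Hspa5 and Hspd1 lie near 0.

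Of the 11 ER J-domain proteins, 5 were called polysomal (45.5%) and 1 subpolysomal (9.09%) in scramble cells, beside 31.7% and 28.4% of all genes. Hspa5 and Hsp90b1 were not called. Dnajc3, a J-domain protein also known as an inhibitor of PERK, was at 7.57, 7.60, 7.55 and 7.19 in scramble subpolysomes and at 9.0, 8.96, 8.87 and 8.92 in polysomes. It was placed in polysomes by 1.46 ± 0.11 (SE, limma adjusted p = 4.87e-08), or 2.75-fold, and by 1.22 ± 0.11 (SE) in eIF6 shRNA cells. Dnajb11, a J-domain partner of Hspa5, was at 10.95, 11.20, 11.13 and 10.54 in scramble subpolysomes and at 12.27, 12.34, 11.92 and 12.32 in polysomes, a placement of 1.26 ± 0.15 (SE, limma adjusted p = 4.22e-06). Dnajb9 was placed in polysomes by 1.03 ± 0.08 (SE). Dnajb14 had a mean placement of 0.69 ± 0.08 (SE), but its brighter probe gave 0.24 and its dimmer one 1.13. Hspa5, the HSP70 with which ER J-domain proteins work, had a placement of −0.25 ± 0.27 (SE, limma adjusted p = 0.439) and Hsp90b1 one of 0.17 ± 0.31 (SE). Hspa5 was at 14.53, 14.56, 14.63 and 14.34 in scramble subpolysomes, above 3 of its 4 polysomal arrays and below that of replicate 4. Without replicate 4 its placement was called, at −0.54 in scramble and −0.50 in eIF6 shRNA cells, as was that of Hsp90b1 in eIF6 shRNA cells, at −0.53. The promoter stretches above carry the ER stress element of Hspa5, Hsp90b1 and Dnajc3 alike, and of these only Dnajc3 was called for placement with all arrays. The differences between the 3 genes were not tested. Hspa13, a microsomal HSP70, was placed at 1.00 ± 0.29 (SE), but its brighter probe gave 0.26 and its dimmer one 1.73. Dnajc18 was the 1 ER member called subpolysomal, by −1.45 ± 0.09 (SE, limma adjusted p = 9.43e-09).

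**Figure D5:**
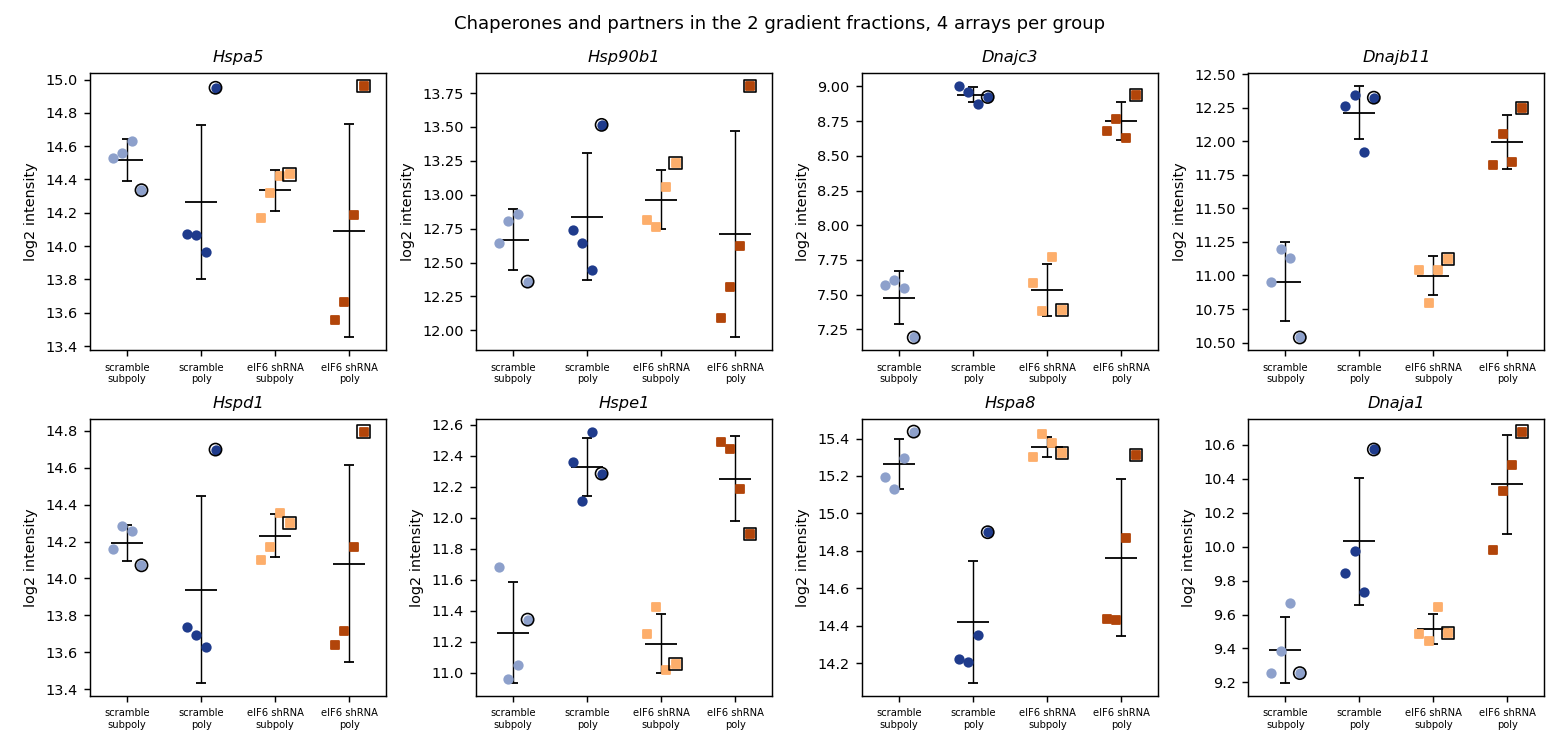
Log2 intensity of 8 members on all 16 arrays, with black-ringed points for replicate 4 and lines for the mean and SD of the 4 arrays of a group. Under both shRNAs Dnajc3, Dnajb11 and Hspe1 separate the fractions by about 1 or more. In scramble cells the polysomal points of Hspa5 and Hspd1 lie below the subpolysomal ones except for replicate 4, which lies above them.

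In mitochondria the lid of the ring was called polysomal and the ring itself was not called. Hspe1 was at 11.68, 10.96, 11.05 and 11.34 in scramble subpolysomes and at 12.36, 12.11, 12.56 and 12.29 in polysomes. Its placement was 1.07 ± 0.17 (SE, limma adjusted p = 7.46e-05) in scramble cells and 1.06 ± 0.17 (SE, limma adjusted p = 7.92e-05) in eIF6 shRNA cells. Its 2 bright probes gave 0.85 and 1.00 in scramble cells, and the remaining probe was not well above background on any subpolysomal array. Hspd1, whose promoter region it shares, had a placement of −0.25 ± 0.25 (SE, limma adjusted p = 0.398). Without replicate 4 Hspd1 was called subpolysomal, at −0.55 in scramble cells (limma adjusted p = 0.00424) and −0.37 in eIF6 shRNA cells (limma adjusted p = 0.0316). The placement of Hspe1 exceeded that of Hspd1 by 1.32 in scramble cells and by 1.22 in eIF6 shRNA cells. This pair was chosen after its values were seen, so the differences are a description with no test. On scaling to the 75th percentile the placement of Hspe1 was 0.58 in scramble cells and 0.42 in eIF6 shRNA cells, the latter not called. Hspa9 had a placement of −0.09 ± 0.22 (SE), and its partner Dnaja3 one of 0.62 ± 0.10 (SE, limma adjusted p = 7.16e-05). Hspa9 was called subpolysomal in scramble cells without replicate 4, at −0.37 (limma adjusted p = 0.037). Dnajc4 was the member of this compartment placed furthest out of polysomes, with 13.63, 13.54, 13.61 and 13.65 in scramble subpolysomes and 12.12, 12.14, 12.12 and 12.01 in polysomes, or −1.51 ± 0.09 (SE, limma adjusted p = 3.04e-09).

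In the cytosol the constitutive HSP70 was called subpolysomal and its J-domain partner Dnaja1 polysomal. Hspa8 was at 15.19, 15.13, 15.30 and 15.44 in scramble subpolysomes and at 14.22, 14.21, 14.35 and 14.90 in polysomes, a placement of −0.84 ± 0.19 (SE, limma adjusted p = 0.00118). All 3 of its probes were negative, from −1.23 to −0.62. Dnaja1 was placed in polysomes by 0.64 ± 0.18 (SE, limma adjusted p = 0.00595), and Dnajb1 in subpolysomes by −0.34 ± 0.08 (SE, limma adjusted p = 0.00211), which was not called on the 75th percentile scale. Hsp90ab1, among the brightest members, had a placement of −0.21 ± 0.20 (SE) in scramble and 0.01 ± 0.20 (SE) in eIF6 shRNA cells. On the 75th percentile scale these were −0.97 and −1.16, both called, and without replicate 4 that of scramble cells was −0.46 (limma adjusted p = 0.00307), so its placement depended on the scaling and on that replicate. Hspa1a was at least 1.70-fold higher in polysomes than in subpolysomes of scramble cells, where no subpolysomal array was well above background (limma adjusted p = 0.00572), and on the 75th percentile scale it was not called.

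The most polysomal members of all were Dnajc12, at 2.23 ± 0.11 (SE) in scramble and 1.84 ± 0.11 (SE) in eIF6 shRNA cells, and Dnajc24, a J-domain protein of diphthamide synthesis on elongation factor 2, at 2.05 ± 0.10 (SE) and 1.77 ± 0.10 (SE). The most subpolysomal was Dnajc27, at −2.20 ± 0.26 (SE) and −2.21 ± 0.26 (SE). Dnajc9 was placed in polysomes by 1.25 ± 0.08 (SE), Hspb1 by 1.01 ± 0.11 (SE) and Hspb8 by 0.93 ± 0.10 (SE). Prefoldin again split. Pfdn2 was polysomal by 0.65 ± 0.13 (SE, limma adjusted p = 0.000574), while Pfdn5 was at −0.03 ± 0.10 (SE) in scramble and at −0.35 ± 0.10 (SE, limma adjusted p = 0.00824) in eIF6 shRNA cells. Of the CCT ring, Cct7 was called polysomal in scramble cells (0.69 ± 0.24, SE) and Tcp1 subpolysomal in eIF6 shRNA cells (−0.62 ± 0.18, SE). Without the scramble polysomal array of replicate 4, Cct7 was no longer called and Tcp1 and Cct5 were called subpolysomal in scramble cells, at −0.62 and −0.50.

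Beside the members stand the partners and regulators that the name rule does not take, a list of co-chaperones, exchange factors, ER folding and degradation proteins and mitochondrial import and protease proteins, of which 71 were tested. In polysomes 6 were lower and 2 higher, beside 10.7% and 11.1% of all genes, and in subpolysomes 9 were lower and 3 higher, beside 12.3% and 11.8%. None was called in translational efficiency. In polysomes the largest fall was that of Ero1l, the oxidase of the ER disulfide pathway, by 0.84 (limma adjusted p = 0.00884), followed by Serpinh1, the collagen chaperone of cells that secrete collagen such as those of the fibroblast list above, by 0.83 (limma adjusted p = 5.75e-05). The largest rise was that of Hscb, the J-domain protein of mitochondrial iron-sulfur cluster assembly, by 0.57 in polysomes and 0.96 in subpolysomes (limma adjusted p = 0.000344 and 2.84e-06). Sil1, an exchange factor of Hspa5, rose by 0.37 and 0.60. For placement in scramble cells 13 of the 71 were subpolysomal and 34 polysomal, beside 28.4% and 31.7% of all genes. The ER part of the list had 15 polysomal and 3 subpolysomal of 26, and its most polysomal gene was Sdf2l1, at 1.48. The most polysomal cytosolic gene was Ahsa1, the activator of the HSP90 ATPase, also at 1.48, and the most subpolysomal was Unc45a, at −0.98. Hsf1, the heat shock factor itself, lay at −0.88 and Xbp1, a transcription factor of the ER stress response, at −0.48.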

How the data were processed

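RNA pooled from subpolysomal and polysomal gradient fractions of scramble and eIF6 shRNA AML12 cells was labelled in 1 colour and hybridised to 16 Agilent arrays of 60-base probes, 4 a group. The study's methods call the arrays biological quadruplicates. The authors scanned the slides and extracted a background-subtracted processed intensity for each spot with Agilent Feature Extraction (10.7.7.1 per the labels, 10.7.3.1 per the file headers). The authors also deposited a table of log2 values of the same arrays. Its correlation with the values used here was 0.9947 to 0.9997 on each array, and it served as an alternative.

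A probe was kept where 2 or more arrays of any group detected it well above background (25260 of 39429). Kept probes were quantile-normalized, taken to log2 and averaged per gene, giving 19365 genes. No spot was saturated, and 82 missing probe values stayed missing. A linear model over all 16 arrays was fitted with limma 3.58.1 in R 4.3.3 (lmFit, eBayes). Benjamini-Hochberg adjustment at 0.05 was made within each of 5 comparisons. These were eIF6 shRNA minus scramble in each fraction, polysomal minus subpolysomal under each shRNA, and their interaction. The number of arrays limits the precision. The scripts were tested on simulated data. The comparisons share arrays and are not independent of each other.

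Alternatives were scaling to the 75th percentile, normalizing each fraction separately, normexp background correction with an offset of 50, other detection filters, the brightest probe of a gene, the deposited table, slide or replicate number as a block, and leaving out each replicate. Leaving out single polysomal arrays of replicate 4 was chosen after seeing the data. Members, gene lists and tests were chosen with earlier results of these data known. Named members were 34 anchors of the chaperone machines, of which 32 were tested, any member called in translational efficiency, and the 5 largest called falls and rises in each fraction among members well above background on all 16 arrays, 43 members in all. Other members, Dnajc24, Dnajc27 and Dnajc28 among them, were named after their values were seen. Compartments were assigned by hand from known protein locations. Same-numbered arrays of 1 shRNA had correlations of deviations from −0.157 to 0.030, so replicate numbers were not used as pairs. The polysomal arrays of replicate 4, from cells with different shRNAs, had one of 0.41. Arrays of 1 shRNA on the same slide had correlations from 0.0045 to 0.2532, and slide entered only as an alternative.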

Additional observations from a re-analysis of the deposited data

Results flagged for a closer look

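Of 172 sets of 4 arrays examined, 10 held an array whose gap to the nearest other array exceeded Dixon's 95% critical share of the whole range, a size that chance gives in about 1 in 20 sets. In scramble polysomes the array of replicate 4 was high for 8 members. Among the CCT subunits it was at 15.66 for Cct2, where the others were at 14.46 to 14.60, at 13.19 for Cct3, where they were at 11.84 to 11.98, and at 14.88 for Cct5, where they were at 13.93 to 14.02. For Cct7 it was at 15.84, with the others at 14.69 to 14.78, and for Tcp1 at 13.65, with the others at 12.72 to 12.83. The remaining members were chaperones of other compartments and families. Hsp90ab1 was at 17.23 (others 16.36 to 16.45), Hspa5 at 14.95 (others 13.96 to 14.07) and Hspd1 at 14.7 (others 13.63 to 13.73). The array of replicate 4 in eIF6 shRNA polysomes was at 9.58 for Hsp90aa1, where the others were at 7.44 to 7.79, as the mean of a bright probe and one well above background on 1 of these 4 arrays. In scramble subpolysomes replicate 4 was low for Dnajc3, at 7.19, where the others were at 7.55 to 7.60.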

How the results depend on the processing

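Of 3212 values of named members and Eif6 under 15 alternatives, 3033 kept their side of the threshold. A further 98 kept the direction and lost the call, 78 kept it and gained a call, and 3 turned round. The direction was compared only where a value was called with or without the alternative. Uncalled values that changed sign are thus among the 3033. Those 3 were placements in eIF6 shRNA cells, of Dnajb11 at −0.031 with no detection filter, and of Hsp90ab1 at −1.16 and Hspa12b at −0.70 on the 75th percentile scale. The cause was not tested. Over the leave-one-out settings the members called lower in polysomes ranged from 3 to 6 and higher from 3 to 10, lower in subpolysomes from 1 to 11 and higher from 3 to 13. In scramble cells those placed out of polysomes ranged from 7 to 18, and those lower in translational efficiency from 0 to 1. The highest counts came without replicate 4. Without the scramble polysomal array of replicate 4 alone, 11 were higher in polysomes and 1 was lower in translational efficiency. Replicate numbers did not pair the arrays of 1 shRNA. With the replicate block 5 members were lower and 6 higher in polysomes and 6 lower and 6 higher in subpolysomes. Normalizing each fraction separately gives no placement. With 4 arrays a group, the intervals of the CCT subunits, Hsp90aa1, Hspa5, Hsp90b1 and Hspd1 are wide, and changes within them could not be detected.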
